A study of Homo sapiens with 10 samples.

Results

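The 3-miRNA mixed group was compared with the sum of what its 3 components did alone, gene by gene, to find where the combined transfection gave a level other than the added single effects. The value reported is the departure, which is the log2 level in the mixed group, minus the log2 levels in miR3124_mimic, miR200b_mimic and miR92b_inhibitor, plus 2 times the log2 level in miRcontrol. A departure of 0 means that the log2 fold changes of the 3 single groups add up to that of the mixture, a positive departure means that the mixture held more mRNA than the sum gives, and a negative departure means less. The contrast needs every group, so it used 10 of the 10 libraries, and it was fitted for 14884 of the 52402 gene symbols in the files, those with enough counts.

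The cells were BEAS2B, a human bronchial epithelial line labelled as normal bronchial epithelium, and they were transfected with a Lipofectamine reagent. The 4 treatments and a control were sequenced with 2 libraries each: a scrambled miRNA (miRcontrol), mimics of miR-200b-3p and of miR-3124-5p, an inhibitor of miR-92b, each at 50 nM, and the mixture of the mimics and the inhibitor, all with RNA taken after 48 h. The amount of each miRNA within the mixture is not given in the sources used here, so a smaller amount of each component and a combination of effects below their sum cannot be told apart in these data. The labels do not say whether the 2 libraries of a group came from separate transfections, so p-values measure only the spread between these libraries, which may be technical.

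A mature miRNA sits in an Argonaute protein and pairs mainly through its seed, bases 2 to 8, with matching words in the 3′ untranslated region (3′UTR) of mRNAs, whose stability and translation then fall. A mimic adds such a guide, and an inhibitor binds the cell's own miRNA and keeps it from its targets. The miR-200 family is known for holding down the transcription factors ZEB1 and ZEB2, which themselves repress epithelial genes such as E-cadherin, so that this family is studied as a guardian of the epithelial state. When several guides are introduced together, the sum of their log2 effects is the usual reference against which the joint effect is read.

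The mature sequences are shown because the words they pair with are used further on, and capitals mark the seed (RefSeq, GRCh38.p14). The labels name miR-92b without its arm, and both arms are given.
hsa-miR-3124-5p, chr1:248826383-248826403, plus strand: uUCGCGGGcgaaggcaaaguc
hsa-miR-200b-3p, chr1:1167160-1167181, plus strand: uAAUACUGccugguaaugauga
hsa-miR-92b-5p, chr1:155195196-155195217, plus strand: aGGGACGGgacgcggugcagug
hsa-miR-92b-3p, chr1:155195237-155195258, plus strand: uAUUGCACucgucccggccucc
The 4 seeds differ from each other, and the complementary words in DNA letters are CCCGCGA for miR-3124-5p, CAGTATT for miR-200b-3p, CCGTCCC for miR-92b-5p and GTGCAAT for miR-92b-3p.

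The libraries held 13587666 to 18503890 counts, and their normalization factors lay between 0.985 and 1.0161. The epithelial keratins KRT8 and KRT18 were present at a mean of 1095 and 922 CPM over all libraries. KRT5, KRT14 and TP63, which mark basal airway cells, stayed at or below 0.486 CPM, and CDH1 was at or below 0.170 CPM in miRcontrol. The rest of the airway epithelial list, ITGB4, S100A2, KRT17, KRT19 and EPCAM, had means of 119, 10.5, 8.79, 6.18 and 3.27 CPM. The blood markers PTPRC, CD3E, HBB and HBA1 stayed at or below 0.116 CPM. CD68, also listed as a leukocyte or endothelial marker, was instead present at 17.0 to 40.9 CPM, highest in miR92b_inhibitor (38.5 and 40.9 CPM). Of the markers of leukocytes and endothelium, CD14 (12.8 and 12.6 CPM) and CDH5 (4.06 and 2.53 CPM) were highest in miR3124_mimic, and CD14 departed by -1.54 (SE 0.73, adjusted p = 0.132) in edgeR's test, short of the threshold, with -0.82 and -2.48 when the first or the second miRcontrol library was left out. These are bulk samples, in which fewer cells of a kind and less RNA per cell cannot be told apart.

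A departure of at least 2-fold with a Benjamini-Hochberg adjusted p below 0.05 (edgeR quasi-likelihood test) was found for 457 genes, 3.07% of those tested, of which 212 were higher (1.42%) and 245 lower (1.65%) than the sum. Without a fold limit, 3234 genes (21.7%) passed, 1735 higher (11.7%) and 1499 lower (10.1%). The median departure over all genes was 0.012 and the median size 0.30, with a median SE of 0.19 against 0.091 for the mixture's own effect. The departure contrast also holds the single groups, and the control enters it with weight 2. For 18 of the 457 genes a group held at most 3 counts in both libraries, where a fitted fold change has no lower bound, and the 439 others (2.95%; 207 higher, 1.39%, and 232 lower, 1.56%) are described from here on.

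Among these 439 genes, the mixture moved in the direction of the sum but fell short of it for 410 (93.4%), had a fitted effect of the opposite sign to the sum for 27 (6.15%), and 2 (0.456%) had a sum within 0.58 log2 units of 0. For 23 of the 27 the mixture effect itself did not pass an adjusted p of 0.05 against miRcontrol. Over the 3216 genes called without a fold limit and with no group at 3 counts or fewer, the mixture was short of the sum for 68.1%, and 30.1% had a sum within 0.58 log2 units of 0. In 0 of the 439 did the mixture go past the sum by 2-fold. The higher departures were genes that the single transfections lowered: their median sum was -1.91, their median mixture effect -0.61 and their median departure 1.26. The lower departures were genes that the single transfections raised, with medians of 2.29, 0.85 and -1.36. The sum, the mixture effect and the departure share the miRcontrol libraries, so these patterns are a description of the called genes and carry no test of their own.

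**Figure D1:**
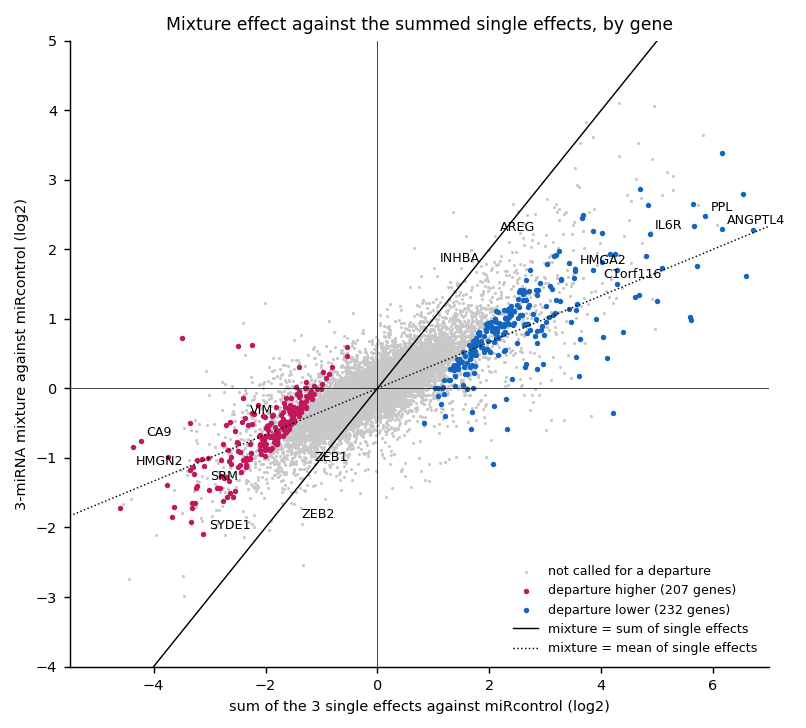
Log2 fold change of the 3-miRNA mixture against miRcontrol (vertical axis) plotted against the sum of the 3 single log2 fold changes (horizontal axis) for the 14584 tested genes with no group at 3 counts or fewer. Coloured points passed 2-fold and an adjusted p of 0.05 for the departure: the 207 higher genes lie above the solid line on the left, the 232 lower genes lie below it on the right, and both clouds run near the dotted line at which the mixture equals the mean of the single effects.

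The mixed level of the called genes mostly lay inside the range of the other groups. Both mixture libraries were above or below all 8 others for 12 of the 207 higher genes and 13 of the 232 lower genes, while over all genes tested both mixture libraries lay above the others for 3.43% and below for 3.62%. On the linear scale, where differences in normalized CPM were added in place of log2 values, the departure kept its sign for 205 of the 207 and 231 of the 232. For 83 of the 207 the linear sum would have given a level below 0, which no cell can hold. Any mixture level lies above such a sum. For a gene lowered in every single group, the linear sum cannot exceed the level given by the log2 sum. Its higher departure thus kept its sign by construction, and the count for the higher genes is no independent check.

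The 12 highest departures among genes with a mean of at least 5 normalized CPM came mostly from genes that miR3124_mimic lowered most. HMGN2, which codes for a nucleosome-binding protein (chr1:26472450-26475972, GRCh38, plus strand), was measured at 501 and 483 in miRcontrol, 245 and 239 in the mixed group, 423 and 394 in miR92b_inhibitor, 291 and 269.8 in miR200b_mimic and 110.4 and 113 in miR3124_mimic (normalized CPM, which are counts corrected for the depth of each library). The 5 groups did not overlap, and the mixed group lay between miR3124_mimic and miR200b_mimic. The added single effects would place the mixture at 52.9 normalized CPM, and the departure was 2.19 (SE 0.080, adjusted p = 7.57e-26). Its processed pseudogene HMGN2P41 followed with 2.03, an uncertain value because the 2 loci share reads.

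VIM, the intermediate filament vimentin of mesenchymal cells (chr10:17228259-17237593), stood at 3894 and 3707 in miRcontrol, 2684 and 2775 in the mixed group, 4247 and 4232 in miR92b_inhibitor, 2972 and 2992 in miR200b_mimic and 827 and 799 in miR3124_mimic. It was lowest in miR3124_mimic and highest in miR92b_inhibitor, and the mixed libraries lay just below those of miR200b_mimic without overlap. The sum of -2.42 log2 units was followed by only -0.48 in the mixture, a departure of 1.94 (SE 0.064, adjusted p = 1.97e-27).

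SRM, spermidine synthase of the polyamine pathway (chr1:11054584-11060024), was at 125 and 122 in miRcontrol, 60.4 and 60.9 in the mixed group, 142 and 141 in miR92b_inhibitor, 118 and 124 in miR200b_mimic and 14.9 and 16.6 in miR3124_mimic. Only miR3124_mimic and the mixture lay below miRcontrol, whose libraries overlapped those of miR200b_mimic. The departure was 1.78 (SE 0.11, adjusted p = 1.09e-17). LDHA, which converts pyruvate to lactate, was at 1858 and 1908 in miRcontrol, 1302 and 1317 in the mixed group, 1512 and 1455 in miR92b_inhibitor, 1628 and 1548 in miR200b_mimic and 563 and 575 in miR3124_mimic. Its groups did not overlap, the mixture lay above miR3124_mimic and below the other groups, and the departure was 1.79 (SE 0.066, adjusted p = 8.09e-26).

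ACTB, cytoplasmic β-actin, which was not among these 12, was measured at 7169 and 7130.5 in miRcontrol, 3807 and 3815 in the mixed group, 5926 and 5889 in miR92b_inhibitor, 6692 and 6698 in miR200b_mimic and 1686 and 1687 in miR3124_mimic. No groups overlapped, the mixture was the second lowest group, and the departure was 1.55 (SE 0.059, adjusted p = 3.49e-25). The other genes of the 12 highest were PALLD, an actin-associated scaffold (2.16), the sialyltransferase gene ST6GALNAC5 (1.95), ESM1, which codes for the proteoglycan endocan (1.93), the histone gene HIST2H2BF (1.82), TMEM158 (1.81), SMARCA4, the ATPase of a chromatin remodelling complex (1.78), and SEMA6B, a membrane semaphorin (1.66). ESM1 differed from the rest in its leading group, with a log2 fold change of -2.07 in miR200b_mimic and -0.88 in miR3124_mimic. SEMA6B differed in that the mixture, at 6.41 and 6.73 normalized CPM, lay below every other library.

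CA9, the hypoxia-regulated carbonic anhydrase IX, lay near that level and departed further upwards. It was at 7.44 and 9.49 in miRcontrol, 5.31 and 4.68 in the mixed group, 1.81 and 2.08 in miR92b_inhibitor, 4.34 and 3.74 in miR200b_mimic and 4.23 and 3.96 in miR3124_mimic. All 3 single groups lay below miRcontrol, while the mixture lay above every single group and below both control libraries. The sum of -4.24 against a mixture effect of -0.76 gave a departure of 3.48 (SE 0.37, adjusted p = 4.54e-10).

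The largest lower departures came from genes raised by 1 or both mimics. ANGPTL4, a secreted inhibitor of lipoprotein lipase (chr19:8363289-8374373), was measured at 1.43 and 1.61 in miRcontrol, 7.52 and 7.43 in the mixed group, 3.33 and 3.01 in miR92b_inhibitor, 6.21 and 8.23 in miR200b_mimic and 10.4 and 11.4 in miR3124_mimic. All treated groups were above miRcontrol, and the mixed libraries fell between the 2 libraries of miR200b_mimic. The sum would place the mixture at 108 normalized CPM, and the departure was -3.86 (SE 0.44, adjusted p = 1.71e-09). PPL, which codes for the desmosomal plakin periplakin, reached 8.44 and 15.01 normalized CPM in miR3124_mimic and miR200b_mimic from 1.41 in miRcontrol, and the mixture stopped at 7.82, a departure of -3.38 (SE 0.50, adjusted p = 7.29e-07) that was -2.78 without the first miRcontrol library.

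IL6R, the interleukin-6 receptor (chr1:154405193-154469450), was at 9.502 and 9.13 in miRcontrol, 41.4 and 45.6 in the mixed group, 13.8 and 14.8 in miR92b_inhibitor, 52.5 and 52.99 in miR200b_mimic and 31.3 and 31.5 in miR3124_mimic. The order was miRcontrol, miR92b_inhibitor, miR3124_mimic, mixture and miR200b_mimic, with no overlap between groups. The departure was -2.65 (SE 0.19, adjusted p = 7.00e-15). CGN, the tight junction protein cingulin, lay at 4.18 and 4.72 in miRcontrol, 18.1 and 15.7 in the mixed group, 5.66 and 6.08 in miR92b_inhibitor, 13.3 and 14.5 in miR200b_mimic and 18.8 and 21.7 in miR3124_mimic. Here the mixture stood between the mimics, with no overlap, and the departure was -2.32 (SE 0.29, adjusted p = 2.61e-08).

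ADAMTS15, a secreted metalloprotease, was at 13.5 and 13.7 in miRcontrol, 42.2 and 39.6 in the mixed group, 12.1 and 8.87 in miR92b_inhibitor, 27.1 and 26.9 in miR200b_mimic and 101.2 and 99.3 in miR3124_mimic. The mixture lay between the mimics, again without overlap, and its departure was -1.91 (SE 0.19, adjusted p = 8.18e-11). ACVR2B, a receptor for activin, reached 53.6 normalized CPM in miR3124_mimic from 13.7 in miRcontrol, and the mixture held 24.2, near the 25.3 of miR200b_mimic (departure -2.02, SE 0.19, adjusted p = 1.94e-11). The glucose transporter gene SLC2A3 (-1.92), the transcription factor genes FOXO1 (-1.88) and PRDM11 (-1.88) and the glutaminyl cyclase gene QPCT (-2.21) behaved alike, each highest in miR3124_mimic. SERPINB2, a plasminogen activator inhibitor (-2.06), and C1orf116 (-2.23) were instead highest in miR200b_mimic. The C1orf116 value was -1.69 and no longer passed when the second miRcontrol library was left out.

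HMGA2, a chromatin protein of fetal and transformed cells, was raised in every treated group and most in the mixture, at 118 and 109 in miRcontrol, 354 and 393 in the mixed group, 202 and 220.5 in miR92b_inhibitor, 256 and 274 in miR200b_mimic and 313 and 296 in miR3124_mimic. The mixture lay above all other libraries, yet the sum of 3.53 exceeded its 1.71, and the departure was -1.81 (SE 0.100, adjusted p = 3.56e-19). DUSP6, a phosphatase of the ERK kinases, had the same shape with a sum of 3.28, a mixture effect of 1.57 and both mixture libraries above all others.

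**Figure D2:**
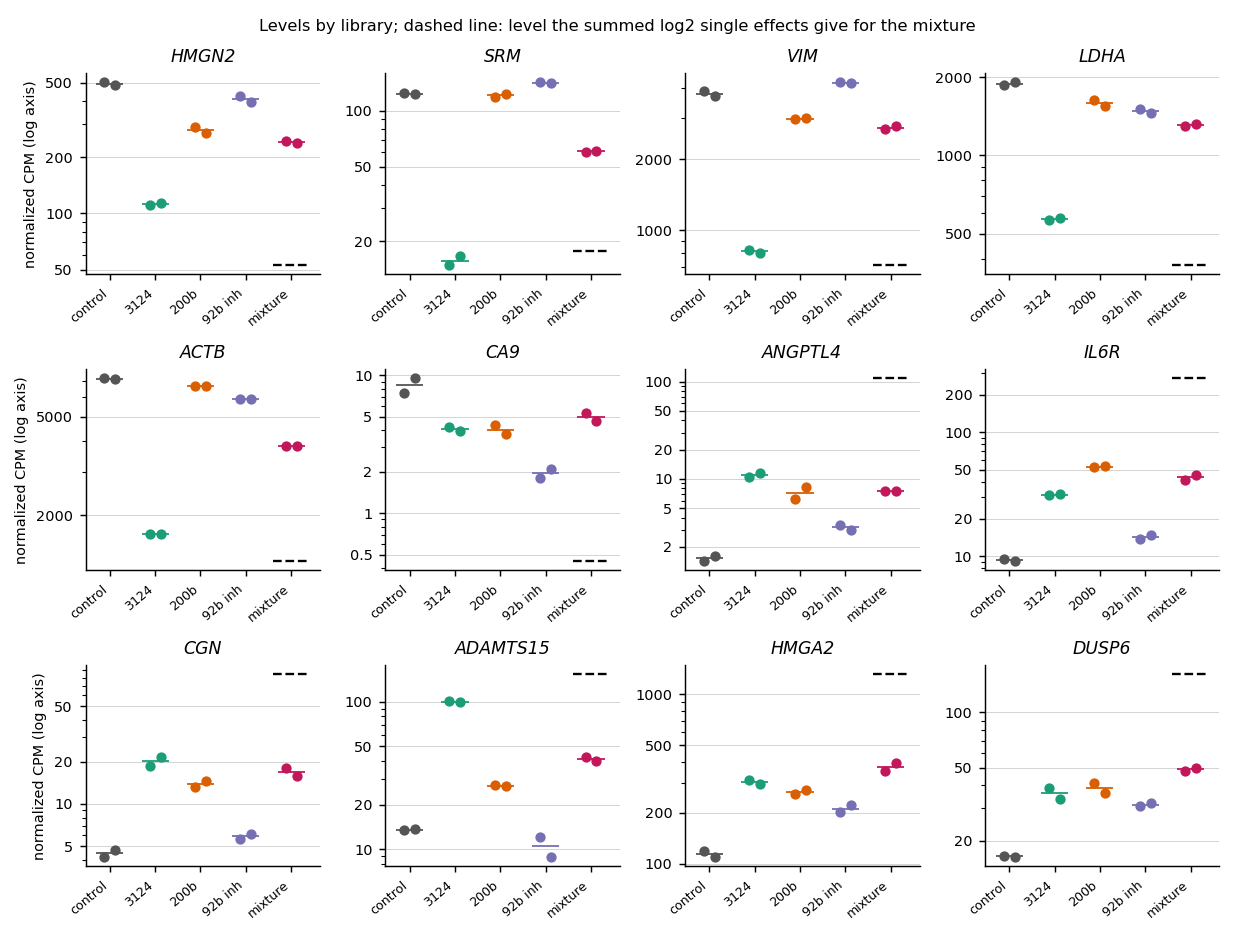
Normalized CPM of 12 genes in each library (points; log axis, its range set per gene) with the group mean as a short line and, as a dashed line, the level that the summed log2 single effects give for the mixture. In the first 6 panels the mixture stands above the dashed line and in the last 6 below it, by between 1.55 (ACTB) and 3.48 (CA9) log2 units upwards and between -1.72 (DUSP6) and -3.86 (ANGPTL4) downwards.

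Genes that answered to a single component were examined next, since for them the sum is nearly the effect of that component. These genes passed 2-fold with an adjusted p below 0.05 in 1 single group and stayed within 0.3 log2 units of miRcontrol in the other 2, a choice made after the values were seen. Before the limit on the other groups, the 2-fold call was met upwards by 5.37%, 2.72% and 0.988% and downwards by 2.75%, 2.16% and 0.927% of all genes in the miR-3124, miR-200b and miR-92b groups. The 135 genes lowered by miR3124_mimic had a median log2 fold change of -1.29 there and -0.59 in the mixture, and the 96 it raised had 1.33 and 0.53. The 55 genes lowered by miR200b_mimic had -1.23 and -0.58, and the 32 it raised had 1.38 and 0.94. For miR92b_inhibitor the 14 lowered genes had -1.12 and -0.47 and the 12 raised genes 1.21 and 0.82. In each of the 6 sets the median in the mixture was nearer to miRcontrol than in the single group.

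The test of the mixture against the single group itself bore on the same genes. The mixture was nearer to miRcontrol than the leading group, with an adjusted p below 0.05, for 117 of the 135 and 78 of the 96 genes led by miR3124_mimic, for 35 of the 55 and 22 of the 32 led by miR200b_mimic, and for 9 of the 14 and 8 of the 12 led by miR92b_inhibitor. Over all genes, the mixture was higher with an adjusted p below 0.05 for 25.3%, 18.2% and 19.7% and lower for 23.8%, 20.4% and 19.9% against miR3124_mimic, miR200b_mimic and miR92b_inhibitor. The sets were chosen for extreme values in the same single-group libraries that this test uses again, and that choice favours a mixture nearer to miRcontrol. It was farther from miRcontrol, with an adjusted p below 0.05 in edgeR's test, for 0 genes in each set. SLC6A8, the creatine transporter gene, named here after its values were seen, is an example in which the mixture was level with miRcontrol. It was at 150.0 and 149.7 in miRcontrol, 156 and 146 in the mixed group, 142 and 137 in miR92b_inhibitor, 149 and 147 in miR200b_mimic and 59.8 and 59.7 in miR3124_mimic. The miR3124_mimic libraries were far below the rest, those of miR92b_inhibitor slightly below miRcontrol, and the departure was 1.46 (SE 0.089, adjusted p = 1.36e-17). Other genes were moved in opposite directions by the components. MMP2, a gelatinase gene, went from 11.8 normalized CPM in miRcontrol to 66.3 in miR3124_mimic and 13.8 in the mixture (departure -1.50, SE 0.23, adjusted p = 1.29e-06). KRT19, a keratin of simple epithelia, was at 8.47 and 7.94 in miRcontrol, 2.49 and 2.74 in the mixed group, 5.54 and 4.71 in miR92b_inhibitor, 13.8 and 15.1 in miR200b_mimic and 0.615 and 0.905 in miR3124_mimic. It was highest in miR200b_mimic and lowest in miR3124_mimic, the mixture lay next to the latter without overlap, and it had a departure of 1.62 (SE 0.40, adjusted p = 0.00204).

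The genes holding a seed word in the 3′UTR of their longest coding transcript (GENCODE v29) were described for 12259 tested genes, of which 13.4% had a higher and 11.7% a lower departure with an adjusted p below 0.05. Of the 76 genes with the miR-3124-5p word CCCGCGA, 35.5% had a higher and 3.95% a lower departure, with a median of 0.25, a median log2 fold change of -0.41 in miR3124_mimic and -0.33 in the mixture. Of the 2386 genes with the miR-200b-3p word CAGTATT, 14.9% were higher and 14.7% lower, with a median departure of 0.0029. For miR-92b, 20.5% of the 512 genes with CCGTCCC were higher and 8.79% lower, and 12.1% of the 1604 genes with GTGCAAT were higher and 17.1% lower. A word is a match of letters and not a shown site.

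For the miR-200 targets ZEB1 and ZEB2 no departure passed the test. ZEB1 was at 63.3 and 62.9 in miRcontrol, 29.7 and 28.5 in the mixed group, 70.7 and 74.7 in miR92b_inhibitor, 25.9 and 25.6 in miR200b_mimic and 59.4 and 56.4 in miR3124_mimic. The mixed libraries lay just above those of miR200b_mimic and far below the rest, and against a sum of -1.22 the mixture gave -1.12, a departure of 0.10 (SE 0.12, adjusted p = 0.645) in edgeR's test. ZEB2 was at 33.8 and 30.8 in miRcontrol, 10.3 and 10.1 in the mixed group, 39.9 and 37.7 in miR92b_inhibitor, 6.95 and 6.44 in miR200b_mimic and 45.9 and 47.2 in miR3124_mimic. The mixed libraries again lay between miR200b_mimic and the rest, and the departure was -0.17 (SE 0.18, adjusted p = 0.574). A test that misses the threshold does not show that the effects were additive, and departures of the size of these SEs could not have been seen.

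Other genes with the same word departed, in both directions. HMGA2 (3 such words, departure -1.81), ACVR2B, FOXO1, SLC2A3, PARD6B, TGFBR3, SMAD7 and ITGA2 were among those below the sum. Of these, HMGA2 (log2 fold change 1.22), ACVR2B, PARD6B and ITGA2 were higher in miR200b_mimic than in miRcontrol. Holding the word thus does not mark a gene that the mimic lowered. The genes described next lay above the sum. LOX, lysyl oxidase of the extracellular matrix, was at 305 and 289 in miRcontrol, 144 and 153 in the mixed group, 267 and 258 in miR92b_inhibitor, 72.3 and 66.04 in miR200b_mimic and 288 and 279 in miR3124_mimic. The mixture lay between miR200b_mimic and all other groups, and the departure was 1.35 (SE 0.086, adjusted p = 5.79e-17). RBL1, a pocket protein related to the retinoblastoma protein, had a sum of -2.69 and a mixture effect of -1.57 (departure 1.12, SE 0.10, adjusted p = 6.03e-12), and ARHGAP19, a GTPase-activating protein, -2.32 and -1.01 (departure 1.31, SE 0.14, adjusted p = 5.41e-10). SYDE1, another GTPase-activating protein, was lowered by both mimics, at 113 and 111 in miRcontrol, 27.4 and 25.2 in the mixed group, 113 and 114 in miR92b_inhibitor, 43.4 and 50.7 in miR200b_mimic and 29.5 and 31.3 in miR3124_mimic. The mixture was below every other library, and the departure of 1.02 (SE 0.12, adjusted p = 6.56e-09) came with a level -1.06 log2 units from the mean of the single groups.

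The windows around these words are shown to place them, read from the genome at GENCODE v29 3′UTRs (GRCh38), with the seed word in capitals. The first 6 carry CAGTATT and the last carries CCCGCGA.
ZEB1, chr10:31527622-31527650, plus strand: ttttatcttatCAGTATTatcactcttat
ZEB2, chr2:144389042-144389070, minus strand: ctaccatacatCAGTATTtttattattat
LOX, chr5:122066401-122066429, minus strand: tgcaaaatggtCAGTATTatctaaatgaa
RBL1, chr20:36997432-36997460, minus strand: cactttgttctCAGTATTgttagtgcatc
ARHGAP19, chr10:97225442-97225470, minus strand: tatttgacctgCAGTATTgaaaaaggaga
SYDE1, chr19:15114365-15114393, plus strand: gccaaccaaatCAGTATTagctttgagca
SEMA6B, chr19:4543474-4543502, minus strand: ctcaagtccccCCCGCGAcccacccgcgg
ZEB1 held 6 such words, ZEB2 5, LOX and ARHGAP19 3 each, RBL1 2 and SYDE1 1.

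The listed genes of cell junctions and polarity showed few departures. Of 24 tested genes of cell junctions and polarity, 0 were higher and 1 lower than the sum in edgeR's test with an adjusted p below 0.05 (2 and 3 at an unadjusted p below 0.05, 1 and 1 with limma voom), against 11.7% and 10.1% of all genes. Of 8 transcription factors of the epithelial to mesenchymal transition 0 passed in either direction with edgeR, DESeq2 or limma voom, and 1 was lower at an unadjusted p below 0.05. In 4 of the 24 junction genes a group held at most 3 counts. The 1 that passed was PARD6B, a cell polarity protein, at 8.93 and 7.94 in miRcontrol, 29.5 and 29.5 in the mixed group, 8.99 and 10.7 in miR92b_inhibitor, 28.1 and 31.2 in miR200b_mimic and 21.9 and 22.2 in miR3124_mimic. The mixture fell between the 2 libraries of miR200b_mimic, and the departure was -1.62 (SE 0.23, adjusted p = 2.32e-07).

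CDH1, E-cadherin, had 3 and 2 counts in miRcontrol against 146 and 157 in miR200b_mimic and 46 and 36 in the mixture, so no departure is given. The mixture held less CDH1 than miR200b_mimic, with a log2 difference of -2.15 (adjusted p = 7.10e-11, edgeR). CRB3, a Crumbs polarity protein, had 1 and 1, 94 and 110, and 51 and 34 counts in the same groups, with a difference of -1.52 (adjusted p = 4.14e-06). AREG, the epidermal growth factor receptor ligand amphiregulin, was at 5.41 normalized CPM in miRcontrol, 28.3 in miR200b_mimic and 24.6 in the mixture, with a departure of 0.090 (SE 0.30, adjusted p = 0.884), which did not pass.

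ZBED2, a zinc finger gene, and LCK, a SRC-family kinase, and KIF5C, a neuronal kinesin, also had a group at 3 counts or fewer. ZBED2 had 3 and 0 counts in miRcontrol, 90 and 92 in miR200b_mimic and 87 and 83 in the mixture. LCK had 1 and 2 counts in miRcontrol, 20 and 25 in miR200b_mimic and 59 and 50 in the mixture, so that the mixture held more than any single group. KIF5C was led by the other mimic, with 75 and 97 counts in miR3124_mimic, 18 and 31 in the mixture and 6 and 5 in miRcontrol. The receptor KIT (-0.55, SE 0.48, adjusted p = 0.479) and the adhesion gene NECTIN4 (0.62, SE 0.85, adjusted p = 0.685) had no departure past the threshold, and the NECTIN4 value was 0.29 without the first and 1.18 without the second miR200b_mimic library.

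Gene lists were then read for which functions departed. A list is described by how many of its tested genes passed an adjusted p of 0.05 for the departure in each direction, against 11.7% higher and 10.1% lower over all genes. Lists of proliferation, ribosome production, sugar metabolism and sterol synthesis lay on the higher side, and lists of signalling feedback, cytokines, proteases and receptors on the lower side. The side against the mean of the single groups could differ (adjusted p below 0.05, edgeR, 14.5% of all genes higher and 12% lower). There, mitosis and spindle had 0 of 34 higher and 27 lower. DNA replication had 2 of 35 higher and 10 lower, and cholesterol synthesis 0 of 25 and 16. Ribosome biogenesis had 24 of 29 higher and 0 lower, and hypoxia and glycolysis 21 of 32 and 2. Cytokines had 11 of 25 higher and 2 lower, and MAPK feedback 7 of 15 and 1. Where a departure count of 0 is given for edgeR, it was also 0 with the DESeq2 Wald test and limma voom for each list that follows.

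**Figure D3:**
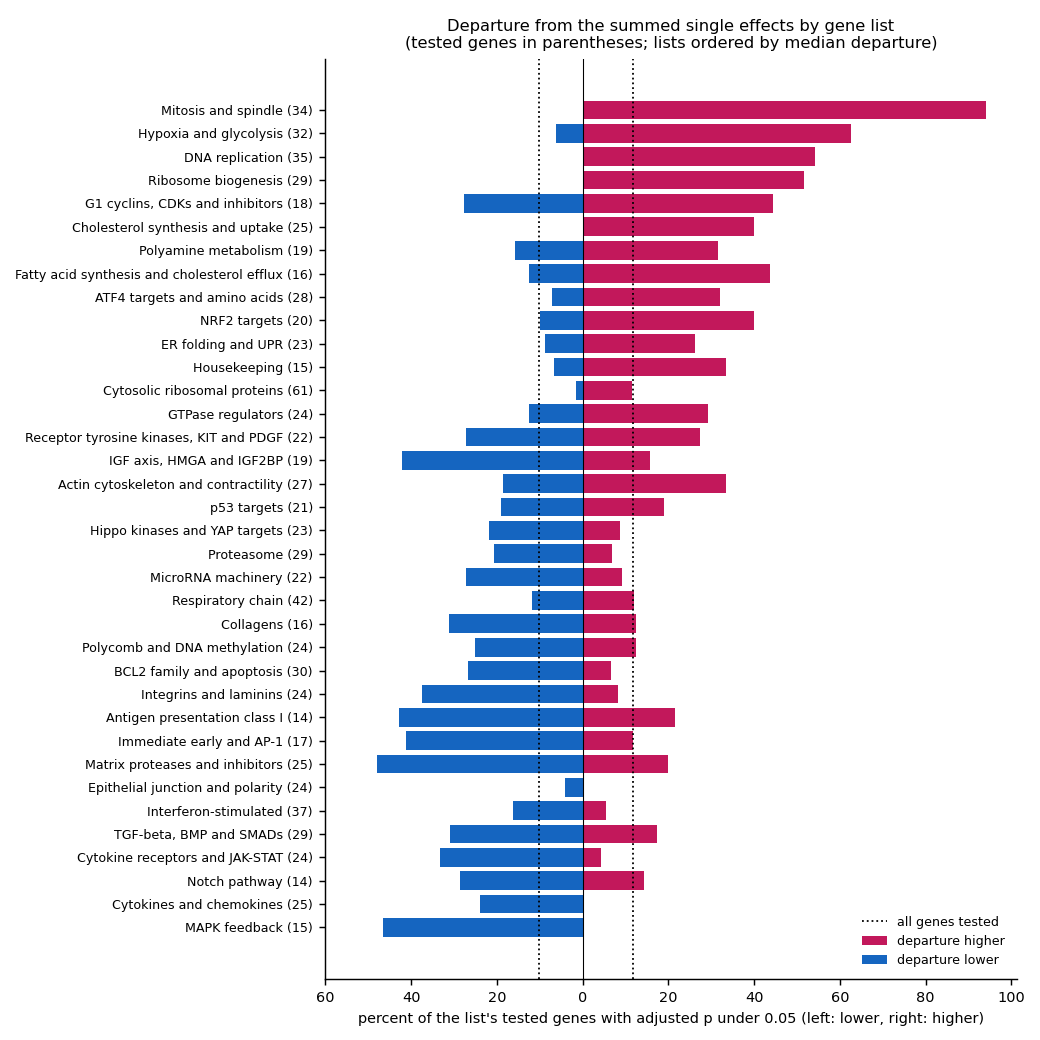
Share of each list's tested genes with a departure at an adjusted p below 0.05, higher to the right and lower to the left, for the 36 lists with at least 14 tested genes (number in parentheses), ordered by median departure. The dotted lines mark the shares over all genes, 11.7% higher and 10.1% lower, and mitosis and spindle stands at the top with 32 of 34 genes higher.

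Mitosis and spindle genes departed most as a group, with 32 of 34 higher and 0 lower (34 and 0 at an unadjusted p below 0.05), a median of 0.73 against 0.012 over all genes, and 6 past 2-fold (1.42% of all genes). Each transfection lowered them: the adjusted p was below 0.05 for 34 of 34 in both mimic groups and 31 in miR92b_inhibitor, where 25.3% (miR-3124), 19.1% (miR-200b) and 18.2% of all genes were lowered. In the same order, the median log2 fold changes of these genes were -0.57, -0.43 and -0.27, and the median in the mixture was -0.63 with 34 of 34 lowered (21.1% of all genes). The fitted level in the mixture lay below that of each single group for 16 of the 34. Both mixture libraries lay below all 8 others for 12 of them (3.62% of all genes).

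CENPE, the kinesin that moves chromosomes to the spindle equator, was at 259 and 251 in miRcontrol, 142 and 149 in the mixed group, 199 and 192 in miR92b_inhibitor, 179.9 and 182 in miR200b_mimic and 117 and 106 in miR3124_mimic. It was lowest in miR3124_mimic and next lowest in the mixture, with no overlap, and the departure was 1.27 (SE 0.085, adjusted p = 3.52e-16). UBE2C, a ubiquitin-conjugating enzyme of the anaphase-promoting complex, departed by 1.26 (SE 0.093, adjusted p = 8.94e-15), and the spindle kinesin KIF11 by 1.08 (SE 0.086, adjusted p = 8.88e-14). AURKB and AURKA, the mitotic Aurora kinases, had 1.23 and 0.96, and CCNB1, cyclin B1, 0.58. The 2 genes that did not pass were HMMR (0.24, SE 0.092, adjusted p = 0.0528) and CDC25C (0.33, SE 0.15, adjusted p = 0.116).

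**Figure D4:**
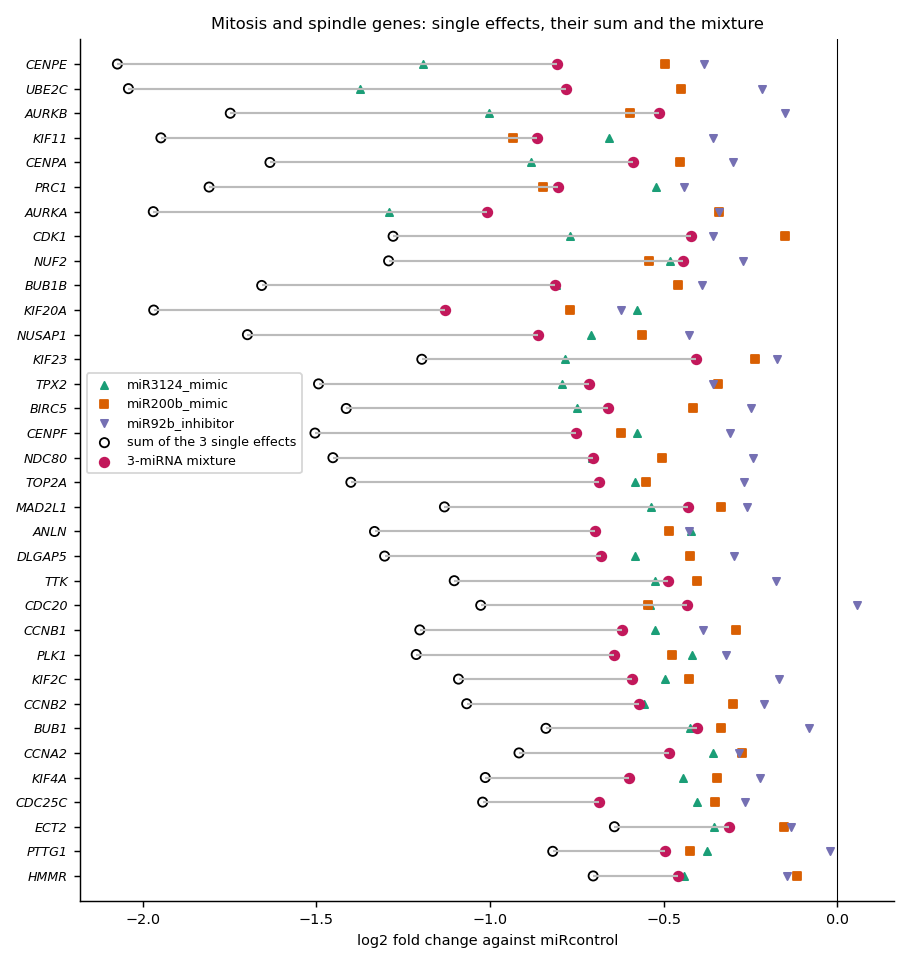
Log2 fold change against miRcontrol of the 34 mitosis and spindle genes in each single group (coloured markers), in the mixture (filled circles) and as the sum of the single effects (open circles), ordered by departure, which is the length of the grey line. For every gene the mixture lies to the right of the sum, by 0.24 for HMMR to 1.27 for CENPE.

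A feature many of these genes share outside the expression data is the promoter word TTTGAA, the cell cycle homology region at which the DREAM complex is known to bind. It was found on either strand within 250 bases before to 50 after the start in 20 of the 29 list members with a RefSeq promoter (69.0%), and in 9.7% of the 10434 promoters of tested genes. HMMR, with the smallest departure of the list, held the word, and CENPE, with the largest, was not among the 20. CCAAT was found in 22 of the 29 (75.9%) and in 36.4% of all. The windows below show the word in capitals at 4 of them (RefSeq, GRCh38.p14).
CCNB2, chr15:59105105-59105134, plus strand: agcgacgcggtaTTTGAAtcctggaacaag
PLK1, chr16:23678848-23678877, plus strand: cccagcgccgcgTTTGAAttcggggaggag
BUB1B, chr15:40161034-40161063, plus strand: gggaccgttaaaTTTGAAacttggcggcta
PRC1, chr15:90994538-90994567, minus strand: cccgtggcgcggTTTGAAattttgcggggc
The word lay 29 bases before the start in CCNB2 and PLK1, 23 in BUB1B and 20 in PRC1. A match is a description of letters, and binding was not measured here.

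DNA replication genes were also on the higher side, with 19 of 35 higher, 0 lower (22 and 1 at an unadjusted p below 0.05) and a median of 0.35. RRM2, the regulated subunit of ribonucleotide reductase, was at 500.2 and 503 in miRcontrol, 302 and 301 in the mixed group, 436 and 443 in miR92b_inhibitor, 361 and 339 in miR200b_mimic and 206 and 197 in miR3124_mimic. The order of the groups was as for CENPE, again without overlap, and the departure was 1.29 (SE 0.074, adjusted p = 1.33e-18). TYMS, thymidylate synthase, departed by 1.18 (SE 0.12, adjusted p = 4.15e-11), and the helicase subunits MCM2, MCM3 and MCM5 by -0.10, -0.012 and 0.0063, none of which passed. In ribosome biogenesis 15 of 29 were higher and 0 lower (20 and 2 at an unadjusted p below 0.05, 9 and 0 with DESeq2), with a median of 0.30, led by BOP1 (0.81, SE 0.094, adjusted p = 3.76e-09), and the single groups went opposite ways: 23 of 29 were lowered by miR3124_mimic (25.3% of all genes) and 23 raised by miR92b_inhibitor (17.5%). The G1 regulators were split, 8 of 18 higher and 5 lower, with RBL1 and CDKN2C above the sum and CCND2 (-1.77), CCNE1 (-1.07) and CDKN1B (-0.78) below it. CCNE1 no longer passed without the first miRcontrol library.

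In the hypoxia and glycolysis list 20 of 32 were higher and 2 lower (median 0.46). Beside LDHA and CA9, the mitophagy gene BNIP3 was at 237 and 246 in miRcontrol, 192 and 191 in the mixed group, 166 and 161 in miR92b_inhibitor, 157 and 141 in miR200b_mimic and 178 and 183 in miR3124_mimic. Every single group lay below the mixture, which lay below miRcontrol, and the departure was 1.35 (SE 0.085, adjusted p = 4.64e-17). HK2, hexokinase 2, departed by 1.08 (SE 0.082, adjusted p = 1.84e-14), while GAPDH (0.086) and PKM (0.022) did not pass. In cholesterol synthesis and uptake 10 of 25 were higher and 0 lower (11 and 0 at an unadjusted p below 0.05, 6 and 0 with DESeq2), with a median of 0.19, and 23 of the 25 were lowered by miR92b_inhibitor (18.2% of all genes). FDFT1, squalene synthase, departed by 0.51 (SE 0.093, adjusted p = 3.61e-05). SCD, a fatty acid desaturase from the list of fatty acid synthesis, fell from 811 normalized CPM in miRcontrol to 289.6 in miR92b_inhibitor and 369 in the mixture, with a departure of 1.36 (SE 0.093, adjusted p = 6.14e-16).

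On the lower side, 7 of 15 feedback inhibitors of MAPK signalling were below the sum and 0 above (9 and 1 at an unadjusted p below 0.05), with a median of -0.55, 4 of them by 2-fold (1.65% of all genes). DUSP6 was at 16.7 and 16.4 in miRcontrol, 48.2 and 49.6 in the mixed group, 30.98 and 31.97 in miR92b_inhibitor, 41.1 and 36.4 in miR200b_mimic and 38.8 and 33.7 in miR3124_mimic. All treated libraries were above miRcontrol, the mixture highest, and the departure was -1.72 (SE 0.17, adjusted p = 6.92e-11). DUSP5 departed by -1.68 (SE 0.14, adjusted p = 1.11e-13), DUSP1 by -1.11 (SE 0.13, adjusted p = 4.27e-09) and SPRY4, a Sprouty protein, by -1.10 (SE 0.13, adjusted p = 8.97e-09). DUSP4, the most abundant of the list, was at -0.17 and did not pass.

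Cytokine genes had 6 of 25 lower and 0 higher (9 and 0 at an unadjusted p below 0.05, 4 and 0 with DESeq2), with a median of -0.41. IL1A, interleukin-1α, was at 8.24 and 9.97 in miRcontrol, 48.4 and 50.5 in the mixed group, 21.5 and 23.8 in miR92b_inhibitor, 23.4 and 26 in miR200b_mimic and 17.1 and 16.7 in miR3124_mimic. The mixture lay above every other library, and its effect of 2.44 was nevertheless below the sum of 3.66, a departure of -1.22 (SE 0.21, adjusted p = 1.94e-05). Added on the linear scale, the single effects of IL1A give 46.1 normalized CPM, below the mixture mean of 49.5, so its side depends on the scale. IL24 was raised mainly by miR92b_inhibitor and held 19.8 and 21.5 normalized CPM in the mixture against 21.6 and 23.8 there, with a departure of -1.19 (SE 0.32, adjusted p = 0.00441). IL6 departed by -2.02, a call lost with the DESeq2 Wald test and without the second miRcontrol library. Of the receptors and JAK-STAT genes 8 of 24 were lower and 1 higher, with IL6R, LIFR (-1.15), the feedback inhibitor SOCS3 (-1.24), STAT3 (-0.83) and IL6ST (-0.56) among the 8.

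In the TGF-beta list 9 of 29 were lower and 5 higher. The receptors ACVR2B, TGFBR3 (-1.72, SE 0.24, adjusted p = 1.96e-07) and TGFBR2 (-0.75) and the inhibitory SMAD7 (-1.38, SE 0.21, adjusted p = 2.05e-06) lay below the sum, and the ligands TGFB1 (0.90), TGFB2 (0.68) and INHBA (0.72) above it. Matrix proteases and inhibitors had 12 of 25 lower and 5 higher, with the stromelysin gene MMP3 at -1.23, PLAU, urokinase, at -0.91 and, on the other side, ADAMTS1 at 1.33 and ADAMTS6 at 1.13. Integrins and laminins had 9 of 24 lower and 2 higher, led by ITGA2, the collagen-binding integrin α2, at 85.97 and 79.9 in miRcontrol, 313 and 341 in the mixed group, 117 and 115 in miR92b_inhibitor, 315 and 318 in miR200b_mimic and 152 and 143 in miR3124_mimic. The mixture overlapped miR200b_mimic and lay above the rest, and the departure was -1.27 (SE 0.097, adjusted p = 2.30e-14).

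Of the immediate early genes 7 of 17 were lower and 2 higher (3 and 2 with DESeq2). ATF3 (-1.21, SE 0.25, adjusted p = 0.000264) and FOS (-2.20) lay below the sum and JUND (1.204, SE 0.12, adjusted p = 8.42e-11) above it, and FOS and JUNB (-1.01) did not pass with the DESeq2 Wald test or without the second miRcontrol library. FOS also did not pass without the first miRcontrol library or the second miR92b_inhibitor library, and JUNB not without the second miR200b_mimic library, where it was -0.55. Metallothionein and zinc genes had 6 of 10 lower and 1 higher. The 1 was MT2A, at 458 and 438 in miRcontrol, 676 and 736 in the mixed group, 599 and 605 in miR92b_inhibitor, 509 and 546 in miR200b_mimic and 288 and 309 in miR3124_mimic, where the mixture lay above every other library against a sum of 0.076, a departure of 0.58 (SE 0.080, adjusted p = 2.03e-07). Of the genes of the miRNA machinery 6 of 22 were lower and 2 higher. DICER1, which cuts miRNA precursors, was at 136 and 133 in miRcontrol, 245 and 256 in the mixed group, 156 and 161 in miR92b_inhibitor, 316 and 318 in miR200b_mimic and 231 and 229 in miR3124_mimic. The mixture stood between miR3124_mimic and miR200b_mimic, and the departure was -1.36 (SE 0.083, adjusted p = 1.32e-17). The Argonaute gene AGO2, which codes for the protein that carries the guides, had -0.41 (SE 0.078, adjusted p = 6.98e-05).

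Of the interferon-stimulated genes 6 of 37 were lower and 2 higher, with a median of -0.24. IFI6, a mitochondrial interferon-induced protein, was at 9.39 and 9.49 in miRcontrol, 37.5 and 68.6 in the mixed group, 32.7 and 32.5 in miR92b_inhibitor, 10.4 and 10.5 in miR200b_mimic and 17.3 and 14.4 in miR3124_mimic. The mixture lay above the rest, but its libraries were 1.83 times apart, and the departure of -0.18 (SE 0.36, adjusted p = 0.786) turned to 0.19 without the first mixture library and to -0.69, past the threshold, without the second. OAS3, an RNA sensor of the same response, was above the sum (0.47, SE 0.17, adjusted p = 0.0483), a call that DESeq2 did not give, and IRF1 below it (-0.71, SE 0.16, adjusted p = 0.000609). HMOX1, heme oxygenase, was raised by miR92b_inhibitor and lowered by miR200b_mimic (1.16 and -1.53), and its mixture effect was -0.76 against a sum of -0.69 (departure -0.069, SE 0.19, adjusted p = 0.856).

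Genes that passed 2-fold in the mixture and in no single group were sought last. With at least 2-fold and an adjusted p below 0.05 against miRcontrol in the mixture and in no single group, 151 genes (1.01%) were found. When the departure and the difference of the mixture from each single group, in the same direction, also had to pass an adjusted p of 0.05, 18 genes (0.121%) remained, 11 higher (0.0739%) and 7 lower (0.047%). With the DESeq2 Wald test 12 of the 18 were kept. In 16 of the 17 with no group at 3 counts or fewer, the mixture had the direction of the sum and fell short of it, and in 15 of these all 3 single groups had that direction too. The rule bars only a single group past 2-fold, so a gene called mixture-only can still be moved by the components. CDKN2C, for example, had log2 fold changes of -0.715, -0.826 and -0.567 in the miR-3124, miR-200b and miR-92b groups.

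The exception was INHBA, which codes for the subunit of activin A (chr7:41667168-41705834, GRCh38, minus strand), the mixture-only gene with the strongest rise. It was at 29.5 and 32.9 in miRcontrol, 100.8 and 107 in the mixed group, 48.4 and 53.6 in miR92b_inhibitor, 60.5 and 56.3 in miR200b_mimic and 20.6 and 20.7 in miR3124_mimic. The mixture lay above all other libraries, while miR3124_mimic lay below miRcontrol. The sum of 1.01 was exceeded by the mixture effect of 1.74, with a departure of 0.72 (SE 0.15, adjusted p = 0.000154) and a difference from the mean of the single groups of 1.40 (SE 0.047, adjusted p = 7.66e-28). Among the genes called without a fold limit whose sum was at least 0.58 log2 units from 0, it was 1 of 2 whose mixture effect went past the sum. Its 3′UTR held 3 CAGTATT words, although miR200b_mimic raised it by 0.90 log2 units.

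STC1, the secreted glycoprotein stanniocalcin, was at 115 and 107 in miRcontrol, 326 and 323 in the mixed group, 159 and 165 in miR92b_inhibitor, 198 and 198 in miR200b_mimic and 164 and 171 in miR3124_mimic. All treated groups were above miRcontrol and the mixture highest, with a mixture effect of 1.55 against a sum of 1.97 (departure -0.43, SE 0.087, adjusted p = 0.000201). SH3BP5L, whose locus (chr1:248810446-248826633, minus strand) spans the miR-3124 sequence on the other strand, had 1.15 against 1.63. The others among the 8 strongest rises were AMPD3, an AMP deaminase (1.15), TMEM156 (1.14), TMEM87B (1.11), the death receptor gene TNFRSF10A (1.11) and CDCP1, a membrane substrate of SRC kinases (1.05), and outside the naming rule CYGB (1.02), FGF2 (1.04) and TGFBR2 (1.005) completed the 11. The departure of TNFRSF10A (-0.54, SE 0.17, adjusted p = 0.0177) did not pass with the DESeq2 Wald test or without either miRcontrol library.

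The 7 lower genes included HFE, the iron regulator of hemochromatosis, at 15.1 and 13.7 in miRcontrol, 5.25 and 6.19 in the mixed group, 9.103 and 7.34 in miR92b_inhibitor, 7.25 and 7.94 in miR200b_mimic and 7.92 and 7.24 in miR3124_mimic. Both mixture libraries lay below all others, and the mixture effect was -1.33 against a sum of -2.66 (departure 1.33, SE 0.27, adjusted p = 0.000223). MARCKS, an actin-binding substrate of protein kinase C, was at 428 and 432 in miRcontrol, 184 and 179 in the mixed group, 302 and 294 in miR92b_inhibitor, 239 and 223 in miR200b_mimic and 341 and 349 in miR3124_mimic. It too was lowest in the mixture, with -1.24 against -1.74 (departure 0.50, SE 0.076, adjusted p = 1.33e-06). CDKN2C, an inhibitor of CDK4 and CDK6 (-1.16), the mitotic kinesins KIF20A (-1.13) and KIF14 (-1.06) and the protease gene PRSS12 (-1.03) were likewise lowest in both mixture libraries. The departure of PRSS12 (0.77, SE 0.23, adjusted p = 0.00986) did not pass with the DESeq2 Wald test or without the second miRcontrol library. NUDT7, a peroxisomal coenzyme A hydrolase, had 1 count in each mixture library against 5 and 6 in miRcontrol, at least 1.97-fold lower when 3 counts per library are taken as the floor.

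**Figure D5:**
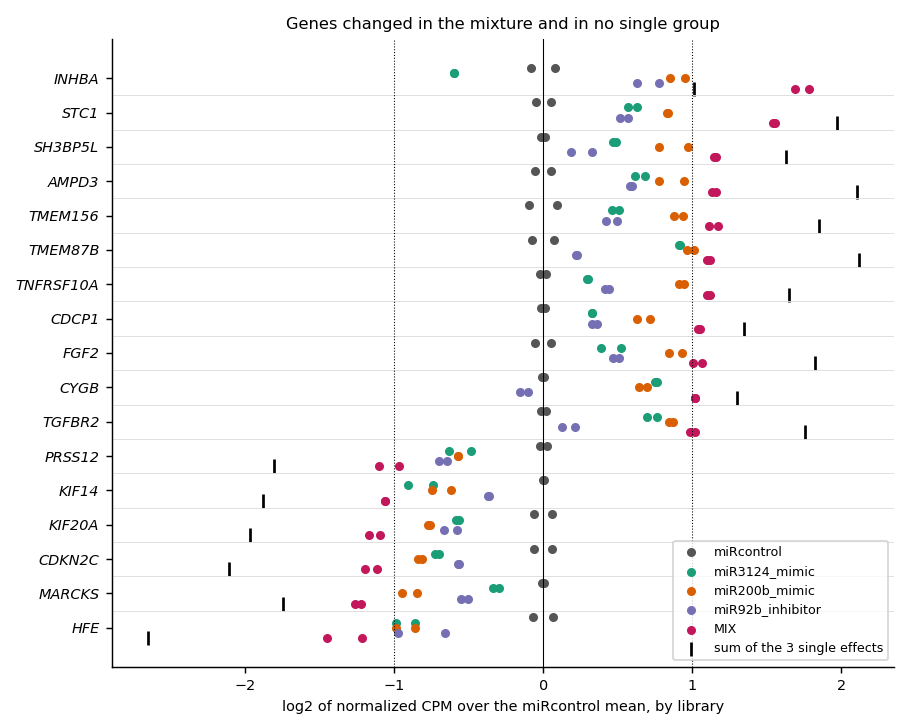
Log2 of normalized CPM over the miRcontrol mean in each library (points, coloured by group) for the 17 mixture-only genes with no group at 3 counts or fewer, with the sum of the single effects as a black bar and 2-fold marked by dotted lines. The mixture lies outside the other groups in every row, and it passes the black bar for INHBA and stays short of it for the other 16.

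The mixture was also set against the mean of the single groups, a contrast that gives miRcontrol no weight. It shares the fit, the mixture libraries and the single-group libraries with the departure. The splits of called genes given here are thus a description and no separate check. The contrast passed 2-fold with an adjusted p below 0.05 for 197 genes (1.32%), 155 higher (1.04%) and 42 lower (0.282%). Without a fold limit it passed for 3956 (26.6%). Genes with a group at 3 counts or fewer were kept in these numbers. With at least 10 counts in every library 60 genes passed 2-fold, and with the DESeq2 Wald test 83. Over all genes 14.5% were above the mean and 12% below it without a fold limit. Of the 207 genes with a higher departure, 53 were also above the mean of the single groups and 39 below it. Of the 232 with a lower departure, 22 were below the mean and 69 above it. IL1A (1.22, SE 0.063, adjusted p = 7.34e-21), IL24 (1.26, SE 0.090, adjusted p = 9.79e-16), AREG (1.49, SE 0.089, adjusted p = 1.68e-18) and INHBA lay more than 2-fold above the mean, and SYDE1 (-1.06, SE 0.059, adjusted p = 1.64e-19) and ZEB2 (-1.16, SE 0.087, adjusted p = 3.98e-15) more than 2-fold below.

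Of the genes whose sum lay within 0.58 log2 units of 0, 2 departed by 2-fold, and both were picked for naming after their values were seen. They were CORO1A, an actin-binding coronin, at 9.39 and 11.04 in miRcontrol, 15.3 and 15.4 in the mixed group, 6.19 and 6.13 in miR92b_inhibitor, 10.5 and 11.4 in miR200b_mimic and 9.77 and 11.6 in miR3124_mimic, and the hedgehog-binding protein gene HHIP, whose mixture libraries held 23.7 and 24.1 normalized CPM against 16.7 and 18.02 in miRcontrol. The sums were -0.54 and -0.55. In both genes the mixture lay above every other library, with departures of 1.13 (SE 0.26, adjusted p = 0.000788) and 1.01 (SE 0.20, adjusted p = 0.000122). At the 2-fold limit itself, KIF18B lay just inside at 1.0007 and NT5E just outside at -0.9995.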

How the data were processed

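BEAS2B cells from 5 groups of 2 libraries each were sequenced as poly(A) mRNA, with a directional kit. The authors aligned the reads with TopHat (version not given in the sources used here) to GRCh38, per the submitters' processing notes, and deposited read counts per gene for each library, the counting tool and its strand setting being not given in the sources used here. Counts of rows with the same symbol (5771 of 58173 rows repeat a symbol) were summed, and samples were grouped by their labels.

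One model was fitted to the 10 libraries with edgeR 4.0.16 in R 4.3.3 (filterByExpr, RLE factors, quasi-likelihood test, no covariates), and the departure and the other contrasts were tested over 14884 genes with Benjamini-Hochberg adjustment. A call needed an adjusted p below 0.05 and, where said, a fold of 2. Normalized CPM are counts divided by the RLE-scaled library size. The text names the 12 highest and 12 lowest called departures with a mean of at least 5 normalized CPM, the 8 strongest mixture-only rises and falls, up to 4 called members of each list with the smallest p, and 18 genes set by name, and others, among them further list members, were chosen after their values were seen. The genes, lists and comparisons were chosen with earlier results of these data known, so no list is independent evidence of its direction.

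Alternatives were TMM factors, library totals, DESeq2 1.42.0, limma 3.58.1 voom, 2 other count filters, a replicate block and leaving out each library. DESeq2 and voom counts within gene lists were added after seeing the data. On simulated counts for the departure, 26 of 50 genes changed 1.5-fold, 36 of 50 changed 2-fold and 43 of 50 changed 4-fold were recovered. Among the 14722 genes fitted, 7 of 14157 unchanged genes were called without a fold limit. The counts were drawn with the spread fitted to these libraries, so they do not measure error between separate transfections. Figures were drawn with matplotlib 3.10.9. Depth of 13587666 to 18503890 counts leaves genes with a few counts per library without a usable fold change.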

Additional observations from a re-analysis of the deposited data

How the results depend on the processing

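On the linear scale the direction of the departure was kept for 454 of the 457 called genes. Under each alternative fit, which reuses the same libraries, it was kept for all of them wherever they were tested. Their number was 458 with TMM factors, 457 with library totals, 469 with limma voom, 509 without a filter on low counts and 439 with at least 10 counts in every library. The DESeq2 Wald test gave 288, of which 138 were lower, all 288 without a group at 3 counts or fewer, and of the 457 it kept 287, with a share of higher genes of 52.1% against 46.4%. It also gave 83 genes at 2-fold and 2547 without a fold limit for the mixture against the mean of the single groups, and 97 mixture-only genes before the tests of the difference. With at least 10 counts in every library, where 12585 genes were tested, the numbers were 60 and 86 for the first and the last of these. Leaving out 1 library at a time gave 398 to 471 departures at 2-fold, 193 to 252 higher, 205 to 244 lower, 369 to 440 without a group at 3 counts or fewer, 2229 to 3074 without a fold limit and 13 to 22 mixture-only genes. For the mean of the single groups without a fold limit it gave 2265 to 3871, the low end, 2265 and 2625, coming from leaving out a mixture library. The departures that did not pass and changed sign were those of KIT (-1.25 to 0.029, above 0 without the first miRcontrol library), HMOX1 (-0.23 to 0.18, with 0.072 without the second miRcontrol library and 0.18 without the second miR200b_mimic library), AREG (-0.096 to 0.29, below 0 without the second miR92b_inhibitor library) and IFI6 (-0.69 to 0.19, above 0 without the first mixture library), and the cause was not tested. Libraries with the same replicate number did not deviate together (correlations of -0.0658 to 0.0605 over 10419 genes), so the numbers were not taken as pairs. A fit with the replicate number as a block gave 462 departures, 447 of them shared with the 457, and 17 mixture-only genes. Depth and 2 libraries per group limit the test, the median SE of a departure being 0.19 log2 units.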
